A study of Mus musculus with 28 samples.

Results

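Heat shock and chaperone genes were followed through Bru-seq libraries of mouse embryonic stem cells (mESCs), namely Hsp90aa1, Hsp90ab1, Hspa8, Hspa1a, Hspa1b, Hsph1, Dnajb1, Hspa5, Hspd1 and Hsf1. They make up 10 of the 24984 genes in the RPKM tables and were taken by name, without a filter on measured values. Earlier results of these data were known when they were chosen. Of the 10 genes, 8 had a mean above 0.5 RPKM, the study's limit for an expressed gene, and 2 (Hspa1a and Hspa1b) stayed below it in every condition. Bru-seq labels the RNA made during a short pulse with 5-bromouridine (BrU), which is then immunopurified and sequenced. WT cells and EloA null cells, which lack Elongin A, a transcription elongation factor, were compared in 3 conditions with 2 libraries per genotype and condition, 12 in all. The steady-state cells had no drug and took up 2 mM BrU for 10 min. The recovery cells were held for 60 min in 1 µM flavopiridol, an inhibitor of the P-TEFb kinase that stops RNA polymerase II from entering productive elongation, and then took up 2 mM BrU for 5 min or 10 min after the drug was washed out. The labels' growth text gives both genotypes as CCE28 lines received as a gift, while their BrU labelling text names CJ7 cells, and which applies was not resolved. The cells were grown on irradiated or mitomycin-treated fibroblast feeders with LIF, PD0325901 and CHIR99021, and freed of feeders before labelling on gelatin. The study describes its duplicates as independent experiments. The labels do not say whether the 2 libraries of a group came from separate cultures, and p-values measure the spread between these libraries.

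The libraries held 9857527 to 28547356 reads, with the 5-min libraries the shallowest. One steady-state library, the first titled EloA null, has wild type as its genotype label, and its title was followed. Nascent RNA of Eloa, the targeted gene, was higher and not lower in the libraries labelled EloA null, at 1.92 against 1.17 RPKM in steady state, 5.69 against 2.89 after 5 min and 8.83 against 5.58 after 10 min, so genotype directions are given by label. This RNA does not measure EloA protein. The study examined the protein by immunoblot in both genotypes. It judged its EloA CUT&RUN-seq signal, a measure of binding, to be specific. The comparison was with EloA signal in null cells and IgG signal in WT cells. At a ribosomal RNA gene the study found EloA binding near background in null cells. The summed RPKM of 8 embryonic stem cell markers was 165 to 171 in the WT and 165 to 182 in the EloA null steady-state libraries. That of 8 feeder fibroblast markers was 1.38 to 1.69 and 1.23 to 1.42, and that of 4 endoderm markers was at most 0.576 in all libraries.

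Chaperones bind unfolded proteins and help them reach or keep their shape. Cytosolic HSP70 proteins work with J-domain partners, which deliver clients and start ATP hydrolysis, and with exchange factors, which release the bound nucleotide. HSP90 acts later, on kinases, steroid receptors and other clients that are nearly folded. Under proteotoxic stress HSF1, the master transcription factor of the heat shock response, forms trimers on heat shock elements, arrays of the letters GAA and their reverse complement TTC, and several of these genes are then released rapidly from paused polymerase. Constitutive members such as Hspa8 and Hsp90ab1 are active in all growing cells, whereas Hspa1a and Hspa1b are known for strong induction by heat.

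RefSeq promoters (GRCm38.p6, from 250 bases before to 50 bases after a start) matched 6 of the 10 genes, with 9 promoters in all. Hspa8, Hsp90ab1, Hsp90aa1 and Hsf1 had no entry. The letters GAANNTTC or TTCNNGAA, each its own reverse complement, make up a pair of heat shock units and occur in 15.1% of all 32851 promoters of the table. The triplet, GAANNTTC followed after any 2 bases by a further GAA, was searched on both strands, is made of overlapping pairs of both kinds and occurs in 0.603%. The endoplasmic reticulum stress element, searched on both strands as CCAAT, any 9 bases and CCACG, occurs in 0.119%. The stretches below are those before a start that hold such letters, with the matched letters in capitals, since HSF1 and the unfolded protein response are known to act through such elements.
Hspa1a, chr17:34972242-34972271, minus strand: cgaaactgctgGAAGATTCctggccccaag
Hspa1b, chr17:34959324-34959353, minus strand: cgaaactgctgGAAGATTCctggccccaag
Hsph1, chr5:149636351-149636380, minus strand: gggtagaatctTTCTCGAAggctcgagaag
Hspd1, chr1:55088053-55088082, minus strand: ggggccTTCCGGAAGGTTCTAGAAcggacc
Hspa5, chr2:34772020-34772049, plus strand: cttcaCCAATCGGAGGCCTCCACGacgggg
Hspa1a and Hspa1b carried the same 30 bases here, and 296 of their 300 promoter bases were alike. The Hspd1 stretch holds overlapping triplets in both orientations and lies 150 to 121 bases before the inner of its 2 annotated starts, which are 311 bases apart. It lies after the outer start, whose own window held none of these letters. It also lies before the start of Hspe1, the neighbouring gene on the plus strand. The stress element of Hspa5 lies 65 to 47 bases before the start. Hsph1 has annotated starts 21 bases apart that share the stretch shown, and it also held a triplet after both starts. In Dnajb1 none of these letters were found in either window. A match is a string of letters, and no binding was measured on these promoters here.

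For genes with introns the deposited RPKM was scaled to intron length. With the summed intron length, including the exon base on either side of each intron, as the divisor, the values gave whole reads within 0.05 read for all 8 expressed members in all 12 libraries. For the intronless Hspa1a and Hspa1b the exon length was used. This shows the length behind a value and not where its reads lay, since the methods speak of reads in whole genes, and whether reads in exons were counted too was not tested. If they were, genes with short introns come out too high, so the order of levels between genes holds for the deposited scale. Ratios of a gene between libraries do not depend on the divisor.

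On the deposited RPKM scale the cytosolic HSP90 and HSP70 genes and the mitochondrial chaperonin led the group in steady state. Hsp90ab1, the constitutive HSP90 (chr17:45567778-45573261, minus strand, 10 introns), stood at 31.4 and 31.3 RPKM in the WT and at 37.5 and 35.8 in the EloA null libraries. Hspa8, the constitutive HSP70 HSC70 (chr9:40801276-40805202, plus strand, 8 introns), stood at 24.5 and 24.3 RPKM in WT and 28.4 and 26.2 in EloA null. Hsp90aa1, the stress-inducible HSP90 (chr12:110691036-110696395, minus strand, 10 introns), stood at 24.7 and 22.6 RPKM and at 28.4 and 24.4. The WT libraries of Hspa8 and Hsp90aa1 overlapped, whereas those of Hsp90ab1 lay above both. Hspd1, the HSP60 chaperonin of mitochondria (chr1:55077833-55088243, minus strand, 11 introns), came next at 21.4 and 19.6 RPKM in WT and 20.2 and 18.2 in EloA null.

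The remaining expressed members were lower. Hspa5, which encodes BiP, the HSP70 of the endoplasmic reticulum (chr2:34772090-34776529, plus strand, 8 introns), stood at 6.88 and 6.65 RPKM in WT and 8.72 and 7.65 in EloA null. Hsph1, the HSP110 exchange factor of HSP70 (chr5:149616843-149636498, minus strand, 17 introns), stood at 6.88 and 6.30 RPKM in WT and 6.53 and 6.08 in EloA null, and its WT libraries overlapped those of Hspa5. Dnajb1, the J-domain partner of HSP70 known as HSP40 (chr8:83608175-83612653, plus strand, 2 introns), gave 3.53 and 3.12 RPKM in WT and 4.501 and 3.70 in EloA null, from 124 to 153 reads. Hsf1 (chr15:76477362-76501155, plus strand, 13 introns) was the lowest of the 8 at 2.11 and 1.95 RPKM in WT and 1.90 and 2.11 in EloA null. Apart from the overlapping pairs named, each gene's WT libraries lay above those of the next in this order. Divided by the whole gene span, an alternative chosen after the data were seen, the same reads gave another order. Hsp90ab1 stayed first, at a WT mean of 17.1, and Hspd1 came second at 15.7, before Hspa8 at 11.8 and Hsp90aa1 at 11.2. Hsph1 then stood at 5.42, above Hspa5 at 2.93, and Hsf1 at 1.88, above Dnajb1 at 1.09.

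**Figure D1:**
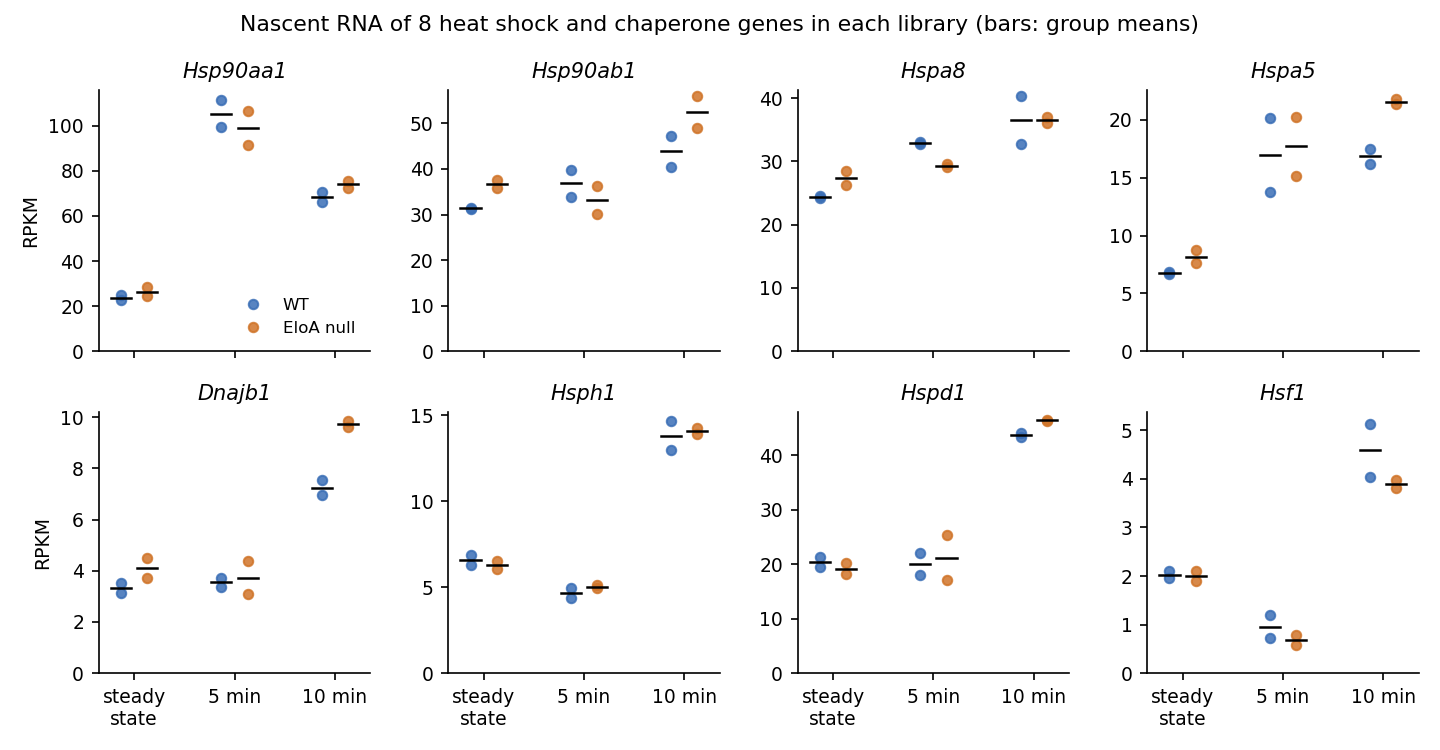
RPKM (y axis, from 0, with its own scale for each gene) of the 8 expressed genes in steady state and after 5 or 10 min of recovery from flavopiridol, with 1 point per library, WT in blue and libraries labelled EloA null in orange, and black bars for group means. The Hsp90aa1 libraries lay between 91.5 and 111 RPKM after 5 min against 22.6 to 28.4 in steady state, while the Hsf1 libraries were at their lowest after 5 min and the Hspd1 libraries at their highest after 10 min.

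After release from flavopiridol the HSP90 genes parted. The 3 tables were normalized separately and their scaling to one another is not known, so ratios of recovery to steady state are given as descriptions with no test, with the SD over the 2 recovery libraries. RPKM is relative to a library's total, so a ratio above 1 need not mean more transcription per cell than in steady state. The 5-min and 10-min ratios share their steady-state libraries. The 5-min recovery libraries took up BrU for 5 min and the steady-state libraries for 10 min. In the 5-min ratios, pulse length and drug release therefore cannot be told apart. Only the 10-min recovery has the pulse length of steady state. The median ratio of all expressed genes was 0.635 in WT and 0.564 in EloA null after 5 min and 1.05 and 1.04 after 10 min. Genes over 30 kb had 10-min medians of 0.70 in WT and 0.69 in EloA null. Those under 10 kb had 1.36 and 1.38. Hsp90aa1 stood at 99.4 and 111 RPKM after 5 min in WT and at 91.5 and 106 in EloA null, above every steady-state library. Its mean was 4.45 ± 0.35 times the steady-state mean in WT and 3.75 ± 0.40 times in EloA null (SD, n = 2). In WT it moved from rank 139 of all genes to rank 7 and in EloA null from rank 127 to rank 5. Of 2729 genes under 10 kb in WT, 23 had a higher ratio, and of 2922 in EloA null 47 did, while the medians of these genes were 0.818 and 0.675. After 10 min Hsp90aa1 was lower again, at 70.5 and 66.2 RPKM in WT and 75.3 and 72.5 in EloA null, which is 2.89 and 2.80 times steady state.

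Hsp90ab1 has nearly the same length as Hsp90aa1 (5.5 against 5.4 kb) and the same number of introns, and it did not follow it. It stood at 33.9 and 39.9 RPKM after 5 min in WT, 1.18 ± 0.13 times steady state, and at 30.2 and 36.3 in EloA null, where the libraries overlapped those of steady state. That EloA null ratio was 0.91 as deposited and 1.23 with all libraries scaled to the same median, so its direction depended on the scaling. After 10 min Hsp90ab1 was at 47.2 and 40.5 RPKM in WT and 55.9 and 49.0 in EloA null, 1.40 and 1.43 times steady state, close to the medians of 1.36 and 1.38 for genes under 10 kb.

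The ratio of Hsp90aa1 to Hsp90ab1 within a library does not depend on how a table was scaled. It may still depend on the BrU pulse, which was 5 min in the 5-min libraries and 10 min in the others. This ratio was chosen after its values were seen and is given with no test. It was between 0.682 and 0.789 in the 4 steady-state libraries, between 2.79 and 3.03 in the 4 libraries after 5 min and between 1.35 and 1.63 in the 4 after 10 min. The conditions did not overlap in either genotype. Of the RPKM summed over the 10 genes, Hsp90aa1 made up 19.5 to 20.9% in steady state, 46.7 to 47.8% after 5 min and 28.5 to 29.6% after 10 min, whereas Hsp90ab1 made up 25.8 to 28.8%, 15.8 to 17.0% and 17.5 to 21.3%.

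**Figure D2:**
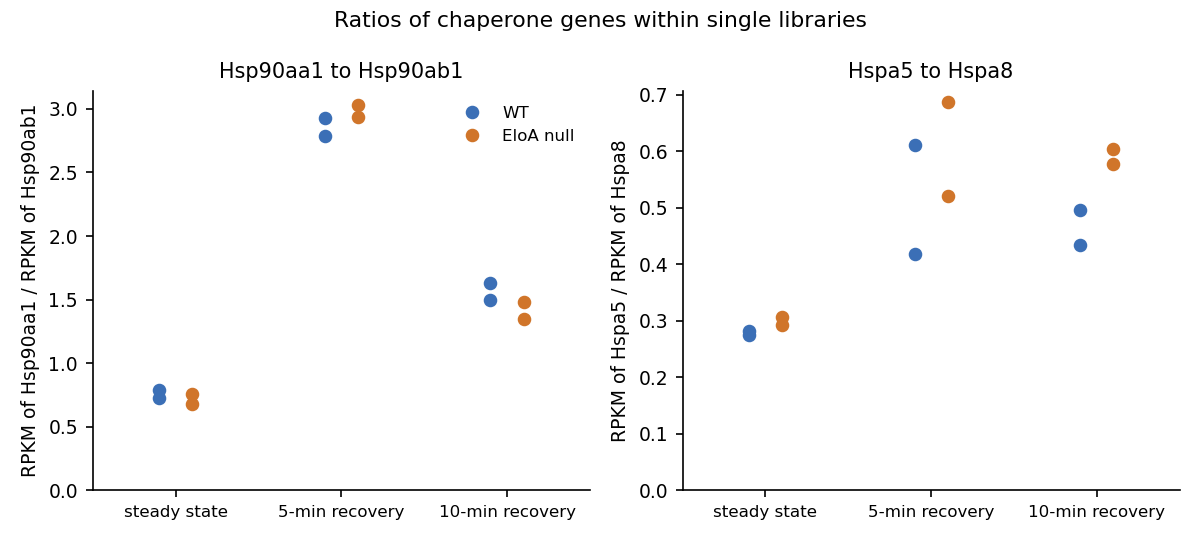
Ratio of RPKM between 2 genes within each library (y axes, no unit, from 0) by condition, for Hsp90aa1 to Hsp90ab1 on the left and Hspa5 to Hspa8 on the right, with 1 point per library, WT in blue and EloA null in orange. The left ratio was 2.79 to 3.03 after 5 min against 0.682 to 0.789 in steady state, and the right ratio 0.418 to 0.687 against 0.274 to 0.307.

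A similar split was seen between the nascent RNA of 2 HSP70 genes, Hspa5 of the endoplasmic reticulum protein and Hspa8 of a cytosolic one. Hspa5 stood at 13.7 and 20.2 RPKM after 5 min in WT and at 15.2 and 20.3 in EloA null, and all 4 libraries lay above those of steady state. The ratios were 2.51 ± 0.67 in WT and 2.16 ± 0.44 in EloA null, which 175 and 238 genes under 10 kb exceeded. After 10 min Hspa5 was at 16.2 and 17.5 RPKM in WT, 2.49 times steady state, and at 21.8 and 21.3 in EloA null, 2.63 times. Rabepk lies over 1921 bases of Hspa5 on the opposite strand, and the methods separate reads by strand but do not say whether the counts per gene used this. Rabepk itself did not pass 4.31 RPKM in any library.

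Hspa8 changed less. It stood at 32.8 and 33.02 RPKM after 5 min in WT, 1.35 times steady state, and at 29.1 and 29.5 in EloA null, 1.07 times. After 10 min it was at 32.7 and 40.4 RPKM in WT and 36.1 and 37.0 in EloA null, and these ratios of 1.499 and 1.34 lay near the class medians, the second falling to 0.977 with median-scaled libraries. Introns of Hspa8 host 3 snoRNA genes of the Snord14 family. Of these, Snord14c and Snord14d were listed at 0 in all libraries. Within a library Hspa5 was at 0.274 to 0.307 of Hspa8 in steady state, 0.418 to 0.687 after 5 min and 0.433 to 0.603 after 10 min, again a ratio chosen after its values were seen.

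Dnajb1, although as short as Hspa5 (4.5 against 4.4 kb), stayed near its steady-state level at 5 min on the deposited scale. It gave 3.73 and 3.39 RPKM in WT and 3.09 and 4.37 in EloA null, both overlapping steady state, from 54 to 111 reads. The ratios were 1.07 ± 0.07 and 0.91 ± 0.22. With median-scaled libraries they became 1.36 and 1.23, so a level near steady state depended on the scaling in both genotypes. After 10 min Dnajb1 stood at 7.56 and 6.94 RPKM in WT, 2.18 ± 0.13 times steady state, and at 9.62 and 9.85 in EloA null, 2.37 ± 0.04 times. Every library after 10 min lay above every library of the same genotype in steady state.

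The 5-min ratios of the 3 longer genes fell in order of their length. Among all expressed genes over 10 kb the medians did not fall with length. They were 0.571 for 10 to 30 kb and 0.589 over 30 kb in WT, and 0.504 and 0.546 in EloA null. Hspd1 (10.4 kb) stood at 18.1 and 22.0 RPKM in WT and 17.0 and 25.4 in EloA null, which is 0.98 ± 0.14 and 1.11 ± 0.31 times steady state. Hsph1 (19.7 kb) stood at 4.95 and 4.35 RPKM in WT and 4.94 and 5.12 in EloA null, below all steady-state libraries of its genotype, with ratios of 0.71 ± 0.06 and 0.80 ± 0.02. Hsf1 (23.8 kb) fell furthest, to 1.201 and 0.715 RPKM in WT and 0.787 and 0.577 in EloA null, with ratios of 0.47 ± 0.17 and 0.34 ± 0.07. The medians of genes of 10 to 30 kb were 0.571 and 0.504, so by their means Hspd1 and Hsph1 lay above and Hsf1 below. In WT the 2 Hsf1 libraries, at 0.591 and 0.352, lay on either side of the median. Of the genes of this class, 40.5% in WT and 33.7% in EloA null had a lower ratio than Hsf1. With median-scaled libraries the Hsph1 ratio was 0.898 in WT and 1.09 in EloA null, and that of Hspd1 1.25 and 1.499, so the direction of Hspd1 in WT and Hsph1 in EloA null depended on the scaling, while Hsf1 stayed below 1 in both genotypes.

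After 10 min these 3 genes were all above steady state in every library. Hspd1 reached 44.0 and 43.4 RPKM in WT and 46.3 and 46.4 in EloA null, 2.13 and 2.42 times steady state. Hsph1 reached 14.7 and 12.98 RPKM and 13.9 and 14.2, 2.10 and 2.23 times. Hsf1 reached 5.14 and 4.04 RPKM and 3.98 and 3.80, 2.26 ± 0.38 and 1.94 ± 0.06 times. All 6 ratios lay above the medians of their length class, 1.53 in WT and 1.503 in EloA null, and a ratio above 2 was found for 32.9% and 32.4% of the genes of this class.

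Hspd1 shares its start region with Hspe1, the co-chaperonin HSP10, which runs the other way and overlaps it by 96 bases. Hspe1 is 3.17 kb long and was named after its values were seen. It stood at 19.6 and 19.5 RPKM after 5 min in WT against 6.85 and 6.92 in steady state, 2.84 times, and at 18.5 and 24.8 against 7.39 and 7.40 in EloA null, 2.92 times. After 10 min the ratios were 2.41 and 2.89. At 5 min the short partner was thus above its steady-state libraries in both genotypes while the libraries of Hspd1 overlapped theirs, and at 10 min both were above.

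**Figure D3:**
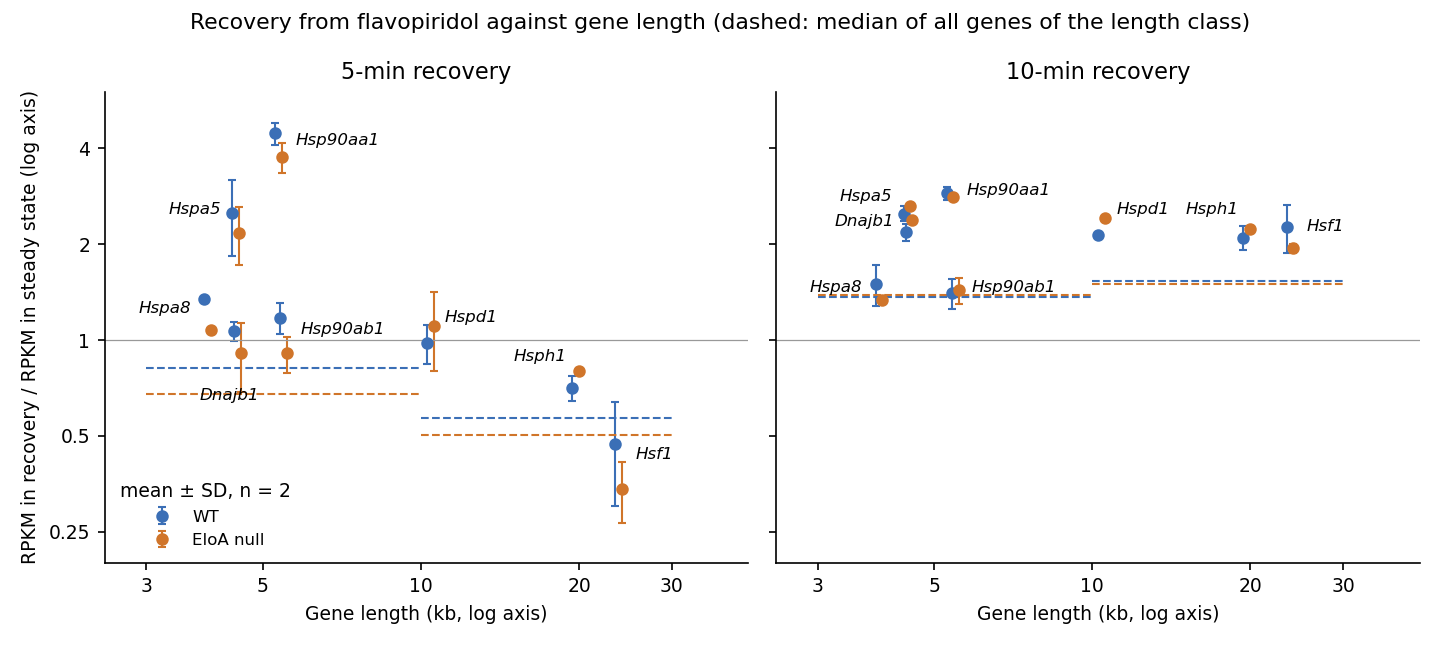
Ratio of mean RPKM in recovery to mean RPKM in steady state (y axis, log scale) against gene length in kb (x axis, log scale) for the 8 expressed genes after 5 min (left) and 10 min (right), WT in blue and EloA null in orange, with bars for the SD over 2 recovery libraries and dashed lines for the median of all genes of the length class. Hsp90aa1 stands at 4.45 and 3.75 at 5 min, where the mean of Hsf1 lies below the line of its class. In WT the SD bar of Hsf1 reaches past that line. At 10 min all 3 genes over 10 kb lie above theirs.

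Hspa1a (chr17:34969359-34972156) and Hspa1b (chr17:34956429-34959238), the stress-inducible HSP70 pair, lie 10120 bases apart on the minus strand and encode nearly the same protein. Hspa1a had 0 to 3 reads and Hspa1b 0 to 3 reads in each library, in all 11 and 13 reads over the 12 libraries, and they were at 0 in 6 and 2 libraries. A count of 0 allows up to 3 reads, which is 0.0376 to 0.109 RPKM for Hspa1a, depending on the library. This limit covers counting error only. No difference was detectable at this depth for either gene, neither between genotypes nor after flavopiridol. As uniquely aligned reads were kept, reads that fit both copies equally would be missing, so these levels are uncertain.

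Other chaperone genes are set beside the members as 8 lists of 140 distinct genes. The highest in WT steady state on the deposited RPKM scale were Hspa4, an HSP110 relative, at 16.2 and 15.3 RPKM, the chaperonin subunit gene Cct4 at 14.1 and 14.6, Hspa9, which encodes the mitochondrial HSP70, at 13.7 and 13.6, Dnajc7 at 12.7 and 11.7 and Dnajc19 at 11.1 and 12.2. After 5 min, 19 of 23 genes under 10 kb and 38 of 53 genes of 10 to 30 kb lay above the median of their length class in WT, against 5 of 5 and 2 of 3 members. Their own medians were 1.23 and 0.982. Of the genes over 30 kb, 18 of 33 lay above the class median in WT and 18 of 33 in EloA null. In EloA null the counts for the shorter classes were 19 of 23 and 40 of 54, and for the members again 5 of 5 and 2 of 3. Among chaperonin and prefoldin genes, which include the complex that folds actin and tubulin, all 15 with a ratio lay above the class median in both genotypes at 5 min, from 0.598 for Pfdn1 to 2.84 for Hspe1 in WT. This list was picked for mention after its values were seen. Among the J-domain genes, by contrast, 3 of 4 under 10 kb, 8 of 14 of 10 to 30 kb and 9 of 16 over 30 kb did so in WT.

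The genotypes were compared within each condition with limma on log2(RPKM + 0.1), with Benjamini-Hochberg adjustment over all genes tested. On this scale the change of genes with low RPKM comes out too small. In steady state no member passed an adjusted p of 0.05 and none differed 1.5-fold, where 0% of 11347 genes passed the adjusted p, 7.21% were more than 1.5 times higher in EloA null and 2.10% more than 1.5 times higher in WT. With limma, 2083 (18.4%) of these genes had an unadjusted p under 0.05, and none of the 8 members did. Ratios of EloA null to WT ran from 0.937 for Hspd1 to 1.23 for Dnajb1. The median log2 fold change of the 8 members was 0.16 against 0.03 for all genes, with 5 members higher by log2 fold change, where 56.2% of all genes were. Both EloA null libraries lay above both WT libraries for Hsp90ab1, Hspa8, Hspa5 and Dnajb1, 4 of 8 members against 32.0% of all genes, and below them for none, against 21.4%. Hspa5 had the lowest adjusted p, with a log2 fold change of 0.27 (SE 0.11, limma adjusted p = 0.288), and Dnajb1 the largest change at 0.29 (SE 0.13, limma adjusted p = 0.342).

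After 5 min the members scattered around no change. No member passed the adjusted p or the 1.5-fold limit, against 0% of 8985 genes for the first and, for the second, 5.40% higher in EloA null and 6.72% higher in WT. An unadjusted limma p under 0.05 was found for 846 genes (9.42%) and no member. The median log2 fold change of the members was -0.02 and that of all genes -0.06, and 4 members were higher in EloA null by log2 fold change, where 40.6% of all genes were. No member had both EloA null libraries above WT, against 15.4% of genes, and Hspa8 alone had both below, against 25.0%. Hsf1 had the widest difference, at a log2 fold change of -0.41 (SE 0.29, limma adjusted p = 0.739), and its libraries overlapped. That difference rested on single libraries: it passed 1.5-fold without WT replicate 2 (-0.75) or without EloA null replicate 1 (-0.60), and was -0.07 without WT replicate 1 and -0.22 without EloA null replicate 2.

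After 10 min, 7 of the 8 members had a log2 fold change (EloA null minus WT) above 0, as 58.5% of all genes did. One of the 7, Hspa8, was level at 0.01, with a mean RPKM of 36.5 in EloA null and 36.6 in WT. No member passed the adjusted p (0% of 10241 genes) or the 1.5-fold limit (9.41% higher in EloA null and 3.01% higher in WT). With limma, 2098 genes (20.5%) and 2 members had an unadjusted p under 0.05. These members were Dnajb1, at 9.62 and 9.85 RPKM against 7.56 and 6.94 (log2 fold change 0.42, SE 0.10, limma adjusted p = 0.151), and Hspa5, at 21.8 and 21.3 RPKM against 16.2 and 17.5 (log2 fold change 0.35, SE 0.09, limma adjusted p = 0.166). Both EloA null libraries lay above both WT libraries for Dnajb1, Hspa5, Hsp90ab1, Hsp90aa1 and Hspd1, 5 of 8 against 33.5% of all genes, and below them for Hsf1 alone, against 21.8%. The members' median log2 fold change was 0.10 against 0.06 for all genes. With libraries centred on their median, Hspd1, Hsph1 and Hspa8 turned to slightly lower in EloA null. In these libraries the 8 feeder markers, of which 1 passed 0.5 RPKM, summed to 1.56 to 1.98 RPKM in EloA null and 2.15 to 2.72 in WT, and their part in the differences was not tested.

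**Figure D4:**
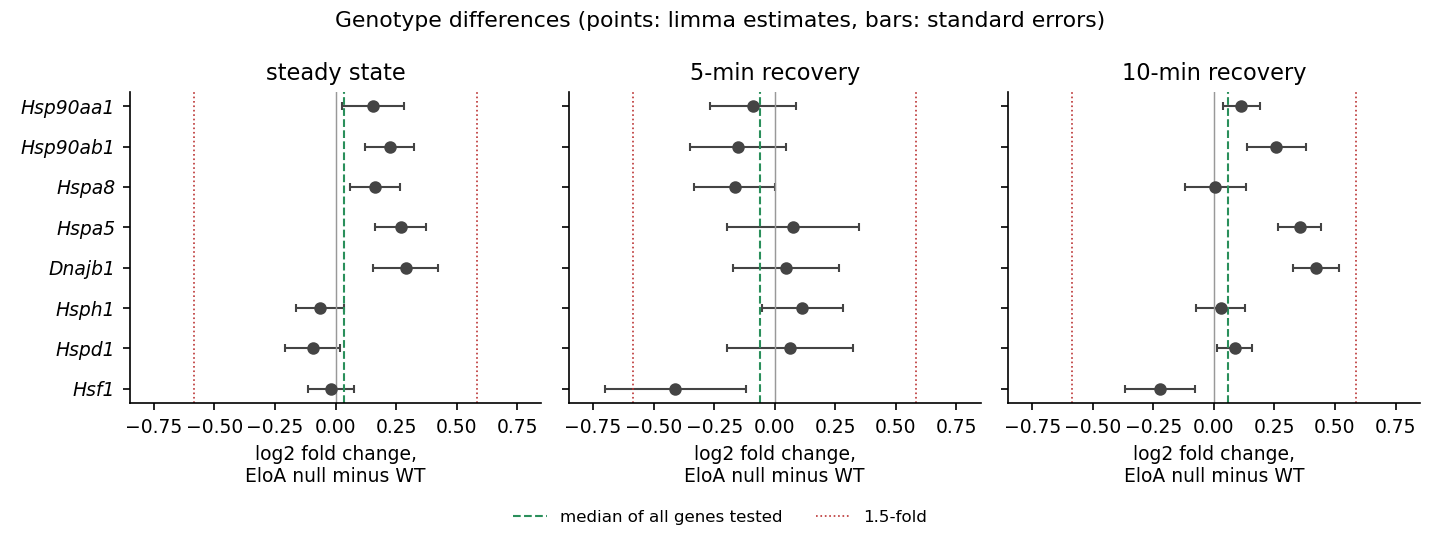
Log2 fold change of EloA null minus WT (x axis) for the 8 expressed genes in the 3 conditions, as points with the limma standard error as bars, with the median of all genes tested as a dashed line and the 1.5-fold limits as dotted lines. No point lies past a dotted line. Dnajb1 and Hspa5 lie furthest to the right at 10 min, at 0.42 and 0.35, and Hsf1 furthest to the left at 5 min, at -0.41.

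Whether the genotype difference itself changed on recovery was tested in all 12 libraries, where a scaling common to a table cancels. Of 11975 genes, 12 (0.100%) passed the adjusted p at 5 min and 1 (0.00835%) at 10 min, and no member did. Hsp90ab1 had the largest change of direction among the cytosolic chaperones at 5 min, from 0.22 in steady state to -0.15, a difference of -0.37 (SE 0.19, limma adjusted p = 0.806). For Hsp90aa1 the difference was -0.24 at 5 min and -0.04 at 10 min. At 10 min the limma adjusted p of all 8 members was 1.

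None of the other chaperone genes passed the adjusted p between genotypes in any condition, with 112 tested in steady state, 98 after 5 min and 112 after 10 min. More than 1.5-fold differences were found for 2 higher and 0 lower genes in steady state, against 7.21% and 2.10% of all genes. They were found for 1 and 6 after 5 min, against 5.40% and 6.72%, and for 3 and 3 after 10 min, against 9.41% and 3.01%. Non-overlap with EloA null above was found for 31, 11 and 32 genes in the 3 conditions, against 32.0%, 15.4% and 33.5% of all genes. With EloA null below it was found for 23, 19 and 26, against 21.4%, 25.0% and 21.8%. The genes named next were picked per condition as the largest rises and falls without overlap, so their non-overlap was fixed by the choice. Dnajc9, a J-domain protein that also chaperones histones, was higher in both EloA null libraries in all 3 conditions, at 5.56 and 6.14 RPKM against 4.26 and 3.54 in steady state, 12.4 and 16.0 against 9.61 and 9.06 after 5 min, and 20.8 and 21.9 against 12.7 and 11.8 after 10 min (log2 fold change 0.80, SE 0.09, limma adjusted p = 0.0886 at 10 min). Hsf2, a relative of Hsf1, was lower in both EloA null libraries in all 3, at 2.42 and 1.94 RPKM against 2.94 and 2.89, 1.19 and 1.31 against 2.44 and 2.00, and 2.98 and 3.27 against 4.98 and 4.84 (log2 fold change -0.63, SE 0.10, limma adjusted p = 0.103 at 10 min).

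Others with the largest differences and no overlap were higher for the small heat shock protein gene Hspb1 in steady state (log2 fold change 0.64, about 48.3 reads per library), for Calr, the calreticulin gene, after 5 min (0.52) and for Dnajc4 after 10 min (0.77). Those lower were Dnajc10, an endoplasmic reticulum reductase with a J domain, in steady state (-0.36) and Hspb8, a small heat shock protein gene, after 5 and 10 min (-0.96 and -0.72). Their limma adjusted p lay between 0.175 and 0.490.

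Over the 12 libraries, the genes most like Hsp90aa1 among 6992 compared were Chtf8, Grpel1 and Brix1, with Pearson's r of 0.993 each on log2(RPKM + 0.1). Grpel1, the nucleotide exchange factor of the mitochondrial HSP70, is the chaperone among them, at a mean of 5.27 RPKM in WT steady state, 19.0 after 5 min and 14.5 after 10 min. Those most like Hsp90ab1 were Vps28, Ndufa6 and Coa4 (0.962, 0.959 and 0.955), and those most like Hspa8 were Ndufb9, Zfp7 and Pin4 (0.943, 0.942 and 0.938). Pearson's r reflects the shape of the changes and not their size. In WT steady state, after 5 min and after 10 min, Ndufb9 had means of 1.598, 3.965 and 5.755 RPKM. Those of Hspa8 were 24.4, 32.9 and 36.6. These correlations describe 12 libraries that share 3 tables with their scaling and depth, and are given with no p.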

How the data were processed

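Per the submitters' processing notes and the study's methods, the authors aligned paired-end Bru-seq reads to mm10 with Bowtie2 2.3.4.3, kept uniquely aligned reads, counted them in RefSeq genes with featureCounts 1.6.1 and normalized them with edgeR. They deposited RPKM values in 1 table per condition, with a mean column per genotype that was not used here. The methods describe directional libraries and the splitting of reads by strand with samtools; whether featureCounts used strand is not given in the sources used here. Library sizes and reads per gene were recovered from the step size of low RPKM values, with the intron length as the divisor: 96.5 to 96.8% of expressed genes with introns were whole within 0.05 read, against at most 10.5% with the full gene span. These reads describe depth and set filters, and no count test was run. The method was tested on simulated tables. Coordinates are those of RefSeq on GRCm38.p6, the assembly behind mm10, with 24420 genes matched by symbol and 423 by older symbol.

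Genotypes were compared with limma 3.58.1 in R 4.3.3 (intensity trend, Benjamini-Hochberg) on log2(RPKM + 0.1) within 1 table of 4 libraries, over genes with a mean RPKM above 0.5 in either genotype, and the 1.5-fold limit was set on mean RPKM. The fit was checked on simulated data with known changes. The change of the genotype difference was tested as an interaction in all 12 libraries. Ratios to steady state used genes above 0.5 RPKM with at least 20 reads in steady state. Alternatives were another pseudocount, other RPKM filters, leaving out each library, the replicate number as a block, a shared fit, centred or median-scaled libraries and robust variances. Depth limits the 5-min libraries most, and no counting intervals were given for expressed genes.

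The genes and lists were chosen with earlier results of these data known. Of other chaperone genes, those named were the 5 highest in WT steady state and, per condition, the 2 largest rises and falls without overlap; Hspe1, Pfdn1, the chaperonin list, the levels per gene span and the within-library ratios were chosen after their values were seen. The 16 CUT&RUN-seq or ChIP-seq samples were not used here.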

Additional observations from a re-analysis of the deposited data

Results flagged for a closer look

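The genotype difference of Hspa8 had opposite signs in 2 conditions. In steady state both EloA null libraries lay above both WT libraries (log2 fold change 0.16), as for 32.0% of all genes. After 5 min of recovery both lay below (-0.17), as for 25.0% of all genes. The change of this genotype difference was tested in all 12 libraries and did not pass the threshold: it was -0.33 (SE 0.16, limma adjusted p = 0.797).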

How the results depend on the processing

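No member passed an adjusted p of 0.05 between genotypes under any alternative, where the lowest was 0.108 (Dnajb1 after 10 min, with the replicate block). The number of genes called over the whole table was 0 in each condition and did depend on the settings. In steady state it was 1 above 2 RPKM, 132 in the fit of all 12 libraries and 81 with robust variances, and it stayed 0 without any 1 library. After 5 min it was 532 in the shared fit and 29 with robust variances, and 0 to 90 without 1 library (61 without WT replicate 1, 64 without WT replicate 2, 90 without EloA null replicate 1). After 10 min it was 5 with a pseudocount of 1, 7 above 2 RPKM, 264 in the shared fit, 12 with centred libraries and 26 with robust variances, and 0 to 81 without 1 library (49 without WT replicate 2, 70 and 81 without EloA null replicate 1 or 2). The interaction at 5 min gave 3 genes with a pseudocount of 1 and 5 to 30 without 1 library (24 and 30 without steady-state replicate 2 of WT or EloA null, 5 and 19 without 5-min WT replicate 1 or 2, 28 without 5-min EloA null replicate 2), against 12, and that at 10 min 4 and 1 to 4, against 1. With the replicate number as a block, 0, 128 and 0 genes were called in steady state, after 5 min and after 10 min; deviations of libraries with the same number correlated by 0.101, 0.119 and 0.103, and with 2 numbers per group the libraries share only a number. Centring the libraries changed the genes past 1.5-fold, higher and lower, from 818 and 238 to 548 and 264 in steady state, from 485 and 604 to 565 and 391 after 5 min, and from 964 and 308 to 613 and 351 after 10 min. It also reversed Hspa8 (-0.0903), Hsph1 (-0.0679) and Hspd1 (-0.0107) after 10 min. Hsf1 alone passed 1.5-fold after 5 min, without WT replicate 2 or EloA null replicate 1, so 0 to 1 members did. Log2 fold changes that changed sign without 1 library ranged from -0.0902 to 0.0506 for Hsf1 in steady state, after 5 min from -0.20 to 0.019 for Hsp90aa1, -0.20 to 0.29 for Dnajb1, -0.20 to 0.35 for Hspa5 and -0.23 to 0.35 for Hspd1, and after 10 min from -0.15 to 0.16 for Hspa8 and -0.0578 to 0.12 for Hsph1. With libraries scaled to the same median, the median recovery ratio of the 8 members was 1.43 in WT and 1.35 in EloA null after 5 min and 1.64 and 1.68 after 10 min, against 1.12, 0.992, 2.16 and 2.302 as deposited. The cause of these changes was not tested.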
